A study of Mus musculus with 12 samples.

Results

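Ribosome biogenesis and Myc were examined in C2C12 myotubes as a set of 42 genes, out of the 55487 genes listed in the count table. The set was given as gene symbols: Myc, the largest subunits of RNA polymerase I, and nucleolar proteins that modify, cut and assemble pre-ribosomal RNA. Each symbol was matched to an Ensembl gene through the GENCODE M21 annotation of genome build GRCm38, and all 42 had a row and passed the filter on low counts. C2C12 is a mouse myoblast line that fuses into multinucleated myotubes when serum is reduced, and STEM is a cell-free mix of the factors that partially differentiated human embryonic stem cells secrete. All cultures were differentiated for 5 days in medium with 2% horse serum and then kept for 24 h in medium with 4% STEM (6 libraries, numbered 7 to 12) or 4% horse serum (6 libraries, numbered 1 to 6). STEM replaced horse serum, so adding the one and removing the other cannot be told apart. The labels do not say that libraries came from separate cultures, and p-values therefore measure the spread between these libraries, which may be technical. Ribosomal RNA was depleted before sequencing and pre-ribosomal RNA itself was not analysed here, so the values below are read counts of genes that encode proteins.

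Ribosomes are made in the nucleolus, where RNA polymerase I copies the ribosomal DNA and small nucleolar ribonucleoproteins (snoRNPs) guide the chemical modification of the transcript. Assembly factors then fold and cut it around the ribosomal proteins of the small and the large subunit. Myc, a transcription factor that pairs with Max and binds the E-box CACGTG, is known to drive many of these genes, and in skeletal muscle ribosome biogenesis is known to accompany growth.

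The promoters of 4 members are shown, those with the lowest p for STEM against horse serum among 7 members whose promoter held an E-box. Each of the 7 promoters held 1. All 7 genes were called higher with STEM, as were 29 of the 35 members with a promoter entry and 18.9% of all tested genes. Promoter sequences were those of RefSeq on build GRCm38.p6, from 250 bases before the first transcribed base to 50 bases from it on. They run 5′ to 3′ on the strand of the gene, and capitals mark the E-box.
Tsr1 (chr11:74897830-74898129, plus strand): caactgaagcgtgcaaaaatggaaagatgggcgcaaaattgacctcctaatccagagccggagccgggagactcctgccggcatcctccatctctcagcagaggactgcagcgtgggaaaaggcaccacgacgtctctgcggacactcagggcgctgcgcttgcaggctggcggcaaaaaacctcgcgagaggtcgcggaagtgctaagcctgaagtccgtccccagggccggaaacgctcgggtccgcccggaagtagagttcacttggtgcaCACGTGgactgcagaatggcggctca
Mybbp1a (chr11:72441077-72441376, plus strand): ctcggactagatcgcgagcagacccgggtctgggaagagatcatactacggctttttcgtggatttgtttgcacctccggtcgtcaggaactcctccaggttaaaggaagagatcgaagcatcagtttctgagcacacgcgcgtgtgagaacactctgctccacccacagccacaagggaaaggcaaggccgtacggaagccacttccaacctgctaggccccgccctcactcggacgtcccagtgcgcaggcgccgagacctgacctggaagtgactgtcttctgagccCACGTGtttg
Nop2 (chr6:125131633-125131932, plus strand): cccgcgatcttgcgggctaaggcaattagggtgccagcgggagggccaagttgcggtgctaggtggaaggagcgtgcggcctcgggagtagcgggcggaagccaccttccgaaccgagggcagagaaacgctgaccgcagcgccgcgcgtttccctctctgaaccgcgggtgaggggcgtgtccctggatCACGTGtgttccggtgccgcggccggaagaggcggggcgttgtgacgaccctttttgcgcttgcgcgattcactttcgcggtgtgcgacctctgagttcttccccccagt
Wdr43 (chr17:71615965-71616264, plus strand): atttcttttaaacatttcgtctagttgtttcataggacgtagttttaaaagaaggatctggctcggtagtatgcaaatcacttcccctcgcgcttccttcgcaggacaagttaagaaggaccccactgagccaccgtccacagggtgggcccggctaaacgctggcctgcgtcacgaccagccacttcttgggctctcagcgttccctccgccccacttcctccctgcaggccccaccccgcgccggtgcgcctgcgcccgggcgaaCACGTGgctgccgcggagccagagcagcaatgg

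A promoter was at hand for 35 of the 42 members, and CACGTG, which reads the same on both strands, was found in those of 7 (20.0%): Tsr1, Mybbp1a, Nop2, Wdr43, Ltv1, Pes1 and Utp20. The same letters were in the promoters of 11.9% of 9922 tested genes with an entry and of 8.09% of all 27025 genes with one. In 6 of the 7 the match began within the transcribed bases, at base 18 in Wdr43, 25 in Tsr1, 29 in Ltv1, 38 in Utp20, 41 in Mybbp1a and 3 in Pes1, counting the first transcribed base as 1. The match in Nop2 began 60 bases before the start. A count in the first 50 transcribed bases alone, made after the positions were seen, gave 6 of 35 members (17.1%) and 1.86% of tested genes, while the 250 bases before the start gave 1 member (2.86%) and 9.98% of tested genes. All 7 members with the motif were among the 29 with a promoter that were called higher with STEM, and 0 of the other 6 held it, so most members that were called higher had no match in this window. Neither Myc nor Max binding was measured, and a match is a description of letters.

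With STEM, 33 of the 42 members were higher than with horse serum, 0 were lower and 9 did not pass the test, at an adjusted p of 0.05 or less (quasi-likelihood test of edgeR, Benjamini-Hochberg adjustment over 14175 genes). At an unadjusted p under 0.05, 1 member (Rrp1) was lower, and DESeq2 and limma-voom called 0 lower. Of all genes tested 18.9% were higher and 17.4% lower, against 78.6% higher among the members. The rises were small, from 1.10-fold (Pes1) to 1.75-fold (Rrp12), with 6 members at 1.5-fold or more and 0 at 2-fold (15 and 0 without horse serum library 6). The median log2 fold change of the 42 was 0.44, that of all tested genes 0.01. For 16 members every STEM library lay above every horse serum library, which was so for 8.68% of all tested genes. Read counts behind these values ran from 32 to 9764 per member and library. In RNA from whole cultures, fewer cells of a type and less RNA per cell cannot be told apart.

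One library stood apart and bears on all of these values. Library totals ran from 13285472 to 24536264 counts, and horse serum library 6 lay at 11.2 on principal component 1 and -53.3 on component 2, far from the other horse serum libraries (-35.5 to -24.6 and 0.22 to 3.15). It was the highest of the 6 horse serum libraries for 35 of the 42 members and the lowest for 1 (Nop10), whereas it was the highest for 35.8% of all tested genes. The mean log2 CPM of the members, taken relative to horse serum libraries 1 to 5, was between -0.05 and 0.08 in those 5 libraries, 0.36 in library 6, and between 0.34 and 0.61 with STEM. CPM is the count of a gene scaled to the normalized total of its library. In the same library 6 the 16 sarcomere genes, which mark mature myotubes, summed to 13345 CPM and each was lower than in the other horse serum libraries, which summed to between 27466 and 29514 CPM. The STEM libraries summed to between 21835 and 28947 CPM. With all libraries, 1 sarcomere gene was called higher (Myh4) and 1 lower (Myh8, in 6 of 19 alternatives), where 18.9% and 17.4% of all tested genes were. Leaving out library 6 gave 1 higher and 10 lower of the 16, where 26.3% and 24.5% of all genes were. Myoglobin, Mb, had a log2 fold change of -0.92 (adjusted p = 0.0988) and was at 270.3 CPM in library 6, below every STEM library (790 to 1155 CPM), and without library 6 it was called lower (-1.14, adjusted p = 4e-06). The 16 genes of proliferating cells summed to 1624 CPM in library 6, to 1031 to 1470 in libraries 1 to 5 and to 770 to 941 with STEM. That list moved against the members, with 0 genes higher in edgeR (0 at an unadjusted p under 0.05, and 0 in DESeq2 and limma-voom). With STEM 13 were lower, against 17.4% of all tested genes, and the median log2 fold change was -0.53. Library 6 was the highest horse serum library for 12 of the 16. Without it the median was -0.40, with 1 gene higher and 12 lower, where 26.3% and 24.5% of all genes were. With all libraries, the mitotic kinase gene Aurkb fell by 0.86 (adjusted p = 0.000214), the topoisomerase gene Top2a by 0.65 (adjusted p = 0.000434) and Pcna, the replication clamp, by 0.36 (adjusted p = 0.000439), each with no overlap. Of 8 markers of undifferentiated myogenic cells 6 were tested. Among these 2 were higher (Id1 and Id3) and 2 lower (Spry1 and Myf5), 33.3% each, against 18.9% and 17.4% of all tested genes. Without library 6, 3 were higher and 2 lower. The list summed to 109 to 131 CPM in libraries 1 to 5, 142 in library 6 and 110 to 137 with STEM, while Calcr was at 0 counts in every library. The part of these markers in the members' levels was not tested.

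**Figure D1:**
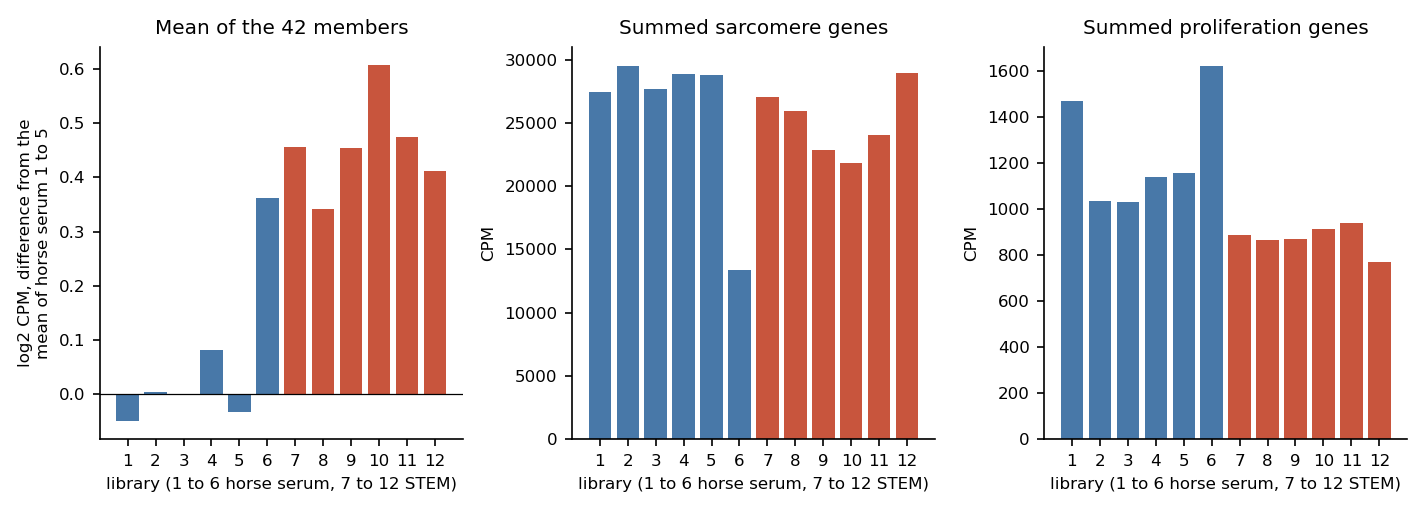
Each bar is 1 library, with horse serum in blue and STEM in red. The left panel gives the mean log2 CPM of the 42 members minus its mean in horse serum libraries 1 to 5, the middle and right panels the summed CPM of 16 sarcomere and 16 proliferation genes. Horse serum library 6 stands at 0.36 for the members, inside the STEM range of 0.34 to 0.61, and at the lowest sarcomere sum (13345 CPM).

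Without horse serum library 6, 36 members were higher and 2 lower, where 26.3% and 24.5% of 14267 genes were higher and lower. Gar1, Ncl and Noc2l passed the test only without it, and Nop10 and Rrp1 were then called lower, by 0.12 (adjusted p = 0.0428) and 0.13 (adjusted p = 0.0483) on the log2 scale. The median log2 fold change of the members rose to 0.51, with 0.01 for all genes. Every STEM library lay above horse serum libraries 1 to 5 for 32 members, against 16.8% of all tested genes. Of the 33 members called with all libraries, library 6 lay within the STEM range for 16 and below every STEM library for 17.

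**Figure D2:**
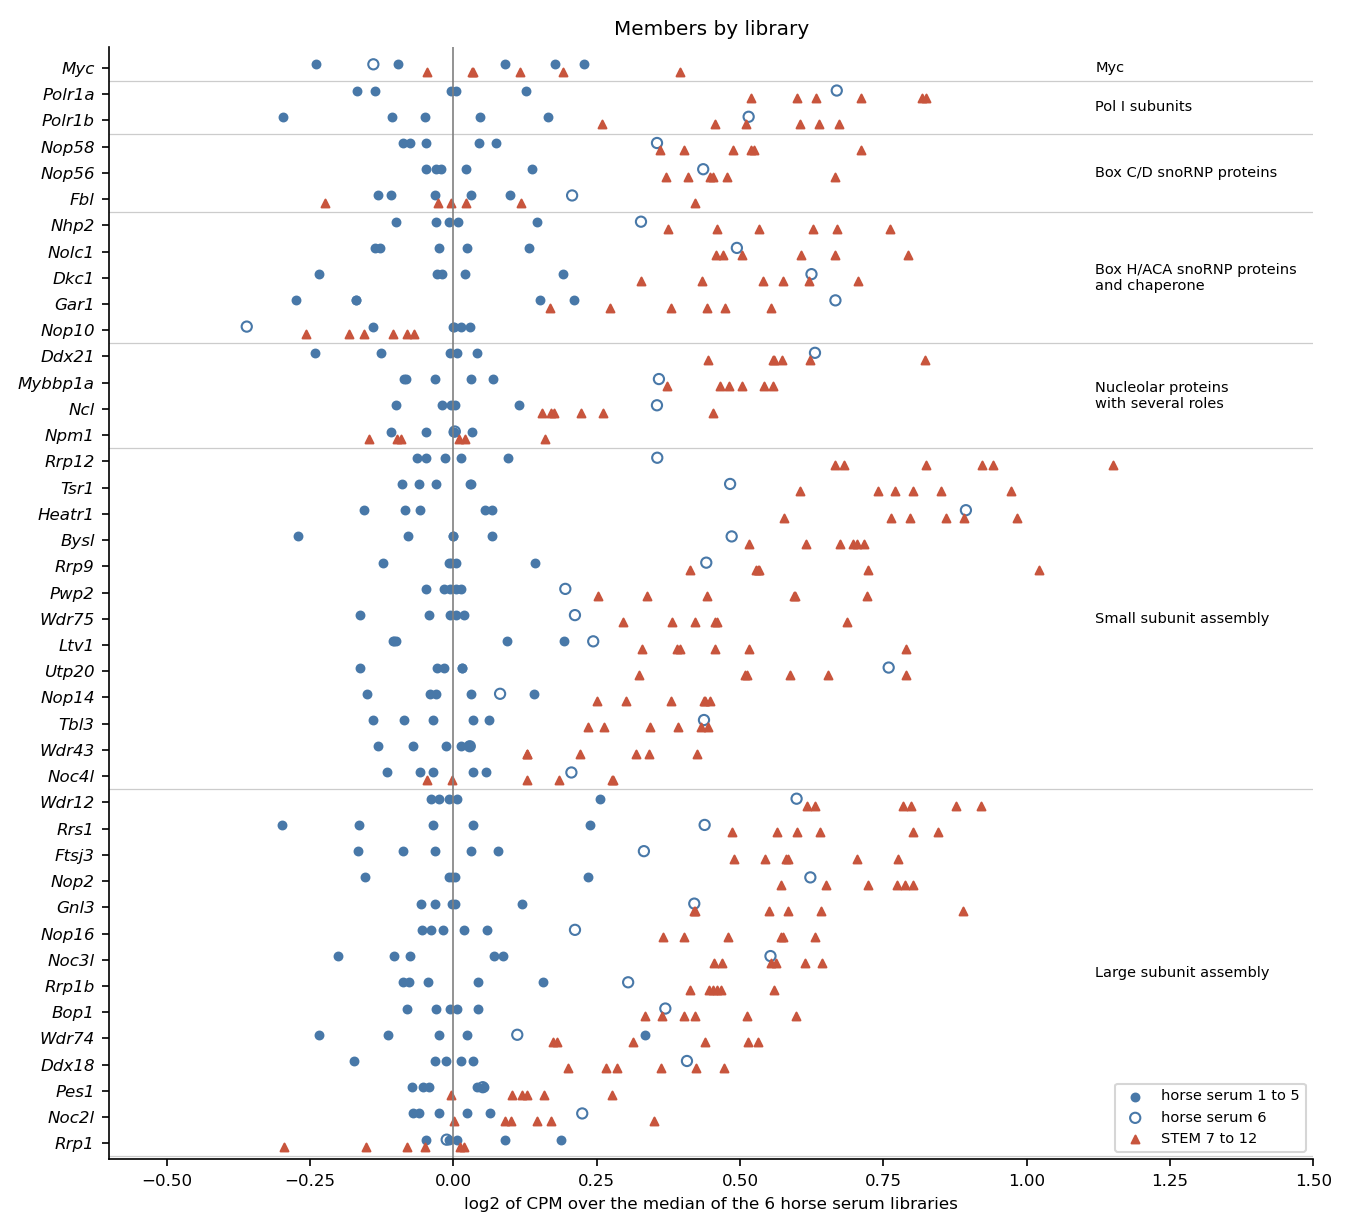
Points are the 12 libraries for each member, as log2 of CPM over the median of the 6 horse serum libraries, with members grouped by role and ordered by fold change. Horse serum library 6 (open circle) lies to the right of libraries 1 to 5 for 35 of 42 members, and for 32 members all STEM libraries lie to the right of libraries 1 to 5.

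Myc mRNA (ENSMUSG00000022346, chr15:61985391-61990374, plus strand) did not pass the test. It was at 11, 13.0 and 15.2 CPM in horse serum (here and below the lowest, the median and the highest of 6 libraries). With STEM it was at 12.6, 13.7 and 17.1 CPM, with a log2 fold change of 0.12 (SE 0.10, 95% interval -0.09 to 0.32, adjusted p = 0.37). The groups overlapped, with only 1 STEM library above the highest horse serum library, and an exact two-sided permutation test gave p = 0.286, where 6 libraries against 6 can give 0.00216 at the least. Unlike most members, Myc was low in horse serum library 6, the fifth of 6 at 11.8 CPM, and the log2 fold change without it was 0.09 (adjusted p = 0.461). The interval leaves room for a rise of 1.25-fold. Per kb of exon, with all annotated exons of a gene merged, Myc stood at 4.82 CPM with horse serum and 5.22 with STEM. Both values were within the range of the other members.

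Genes of the network around Myc were examined as a list of 13, of which 11 were tested, 2 were higher, 4 lower and 5 not called, with a median log2 fold change of 0.08. The share higher, 18.2%, was close to the 18.9% of all tested genes and the share lower was 36.4%, against 17.4%. Without horse serum library 6, 4 were higher and 4 lower, where 26.3% and 24.5% of all genes were. The genes called lower include 3 of the 4 Mxd genes, whose products compete with Myc for Max and repress at E-boxes. Mxd1 was at 21.9, 33.0 and 35.4 CPM in horse serum. With STEM it was at 16.4, 17.5 and 23.4 CPM and fell by 0.74 on the log2 scale (SE 0.12, adjusted p = 0.000241). The groups overlapped only through horse serum library 6, which held the lowest of the horse serum values. Mxd3 was at 12.5, 15.9 and 20.6 CPM in horse serum and at 8.35, 10.9 and 12.1 CPM with STEM, and fell by 0.64 (SE 0.13, adjusted p = 0.0011). Its groups did not overlap, and library 6 held its highest value. Mxi1 was at 29.0, 68.4 and 74.7 CPM in horse serum, with library 6 as the lowest, and at 32.8, 35.3 and 49.2 CPM with STEM (log2 fold change -0.70, SE 0.20, adjusted p = 0.0167). Leaving out library 6 gave Mxi1 a log2 fold change of -0.85 (adjusted p = 2.25e-05), and its call was lost when no filter on low counts was used. Mxd4, the remaining member of that family, had a log2 fold change of 0.03 (adjusted p = 0.689).

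Max, the shared partner, had a log2 fold change of 0.16 (adjusted p = 0.0415), a call that was lost in 13 of 19 alternatives, among them leaving out any 1 of horse serum libraries 1 to 5. Mlx, the partner in a parallel network, was at 25.6, 27.2 and 29.7 CPM in horse serum and at 30.0, 32.2 and 36.8 CPM with STEM, with no overlap (log2 fold change 0.25, SE 0.06, adjusted p = 0.00455). Zbtb17, a zinc finger protein through which Myc represses genes, fell by 0.18 (adjusted p = 0.0314), a call lost in 6 alternatives. Mnt and Mga were not called (0.15 and 0.08, adjusted p = 0.422 and 0.267), nor was Mlxip (0.36, adjusted p = 0.0636). Mycl, a paralog of Myc, was at 34.9, 57.5 and 63.7 CPM in horse serum and at 62.1, 67.4 and 70.3 CPM with STEM (log2 fold change 0.28, adjusted p = 0.06). Its lowest value was again horse serum library 6, and without that library the difference was smaller but called (0.18, adjusted p = 0.00328). Mycn and Mlxipl were at no more than 5 and 2 counts in any library and were not tested.

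**Figure D3:**
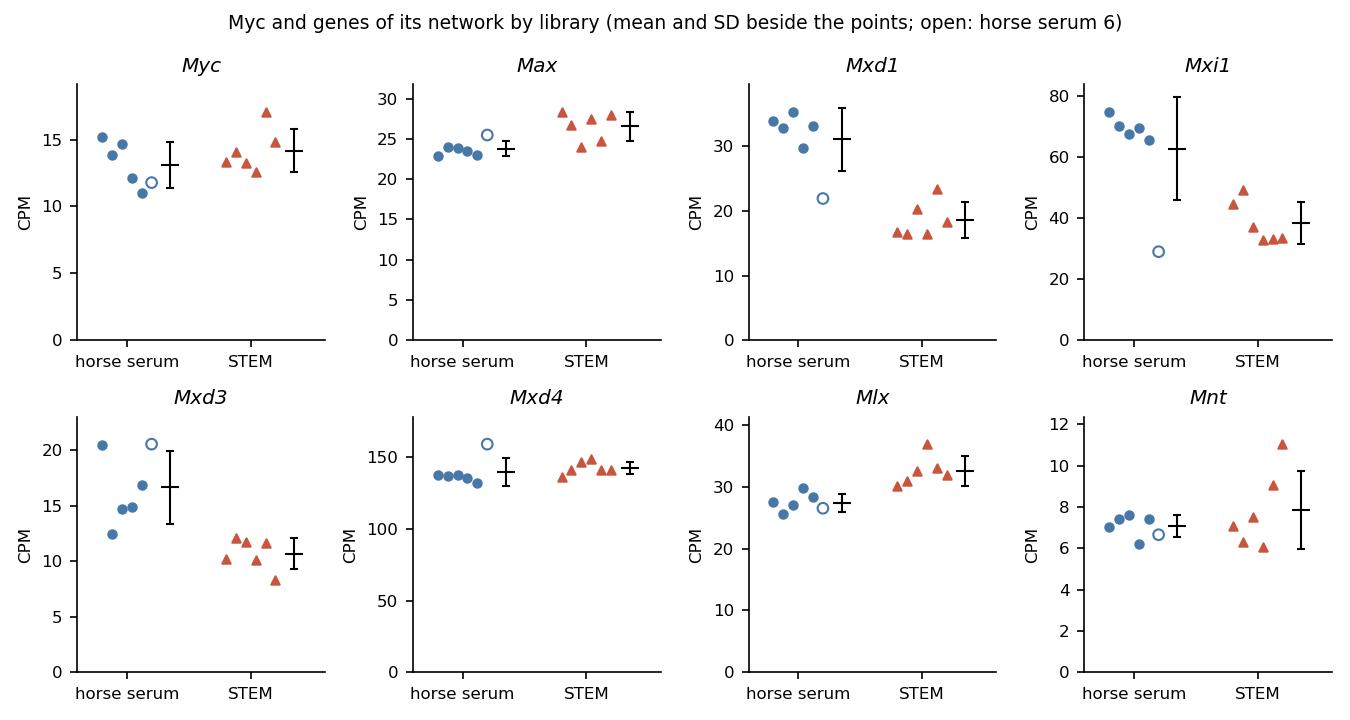
CPM of Myc and 7 genes of its network in each library, with the mean and SD of each group beside the points and horse serum library 6 as an open circle. Myc overlaps between the groups, Mxd3 is lower in all 6 STEM libraries and Mlx higher in all 6, and library 6 alone carries the overlap of Mxd1.

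Myc targets outside the ribosome, a list of 20 genes that mostly act in metabolism and growth, had 10 genes higher (50%), 1 lower (5%) and a median log2 fold change of 0.19. Of all tested genes 18.9% were higher and 17.4% lower. Without horse serum library 6, 14 genes of the list were higher and 3 lower, where 26.3% and 24.5% of all genes were. Bzw2, a regulator of translation start, rose by 0.43 on the log2 scale (adjusted p = 1.81e-05). Spermidine synthase, Srm, rose by 0.62 (adjusted p = 2.79e-05), and Odc1, which makes the polyamine precursor putrescine, by 0.51 (adjusted p = 0.00018). The Odc1 groups overlapped only through horse serum library 6, at 168 CPM against 165 in the lowest STEM library. Tfap4, a transcription factor, fell by 0.53 (adjusted p = 0.00884) at 1.36 to 2.66 CPM.

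The 2 subunits that form the catalytic core of RNA polymerase I were both higher with STEM, as were 18.9% of all tested genes. Polr1a (chr6:71909053-71984935), the largest subunit, was at 32.5, 36.6 and 58.1 CPM in horse serum. With STEM it was at 52.4, 58.2 and 64.7 CPM, a log2 fold change of 0.57 (SE 0.12, adjusted p = 0.00263). The overlap came from horse serum library 6 alone, since the other 5 libraries reached no more than 39.9 CPM. Polr1b (chr2:129100995-129126594), its partner at the active site, was at 10.2, 12.6 and 17.9 CPM in horse serum. It was at 15.0, 18.5 and 20.0 CPM with STEM, with a log2 fold change of 0.46 (SE 0.12, adjusted p = 0.00692). Here too library 6 was the highest of its group and the only one to reach the STEM range. Leaving it out raised the log2 fold changes to 0.72 and 0.57.

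Among 13 other subunits and factors of RNA polymerase I, 5 were higher (38.5%) and 2 lower (15.4%), with a median log2 fold change of 0.06. Of all tested genes 18.9% were higher and 17.4% lower. The pair Polr1e and Polr1g, which make up a dimer at the edge of the enzyme, rose by 0.90 (adjusted p = 1.59e-05) and 0.68 (adjusted p = 1.26e-06) with no overlap between the groups. Rrn3, the factor that brings the enzyme to the promoter, rose by 0.23 (adjusted p = 0.00168). Polr1h, a small subunit that helps to cut the transcript, fell by 0.36 (adjusted p = 0.00163), also with no overlap, and of the promoter selectivity factor Taf1b fell by 0.24 (adjusted p = 0.0133) while Taf1a and Taf1c rose by 0.34 (adjusted p = 0.0055) and 0.56 (adjusted p = 0.0147). Taf1d of the same factor was not called (0.06, adjusted p = 0.4). Polr1c and Polr1d, shared with RNA polymerase III, were not called (-0.07 and 0.03), nor was Ubtf (0.03, adjusted p = 0.809), the factor that binds along active ribosomal DNA.

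RNA polymerase III makes transfer RNA and the smallest ribosomal RNA. Of 22 of its subunits and factors 7 were higher (31.8%) and 4 lower (18.2%), with a median log2 fold change of 0.09. Of all tested genes 18.9% were higher and 17.4% lower. Without horse serum library 6, 11 genes of the list were higher and 5 lower, where 26.3% and 24.5% of all genes were. The calls of Gtf3c4, Polr3g and Gtf3c3 were lost in 16, 10 and 2 of 19 alternatives. Maf1, the repressor of this enzyme, was at 93.0, 102 and 104 CPM in horse serum. It was at 72.4, 73.1 and 75.8 CPM with STEM and fell by 0.43 (SE 0.04, adjusted p = 2.43e-06). The groups did not overlap and horse serum library 6 was the lowest of its group. Polr3d, a subunit of the enzyme, rose by 0.62 (adjusted p = 8.43e-05).

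**Figure D4:**
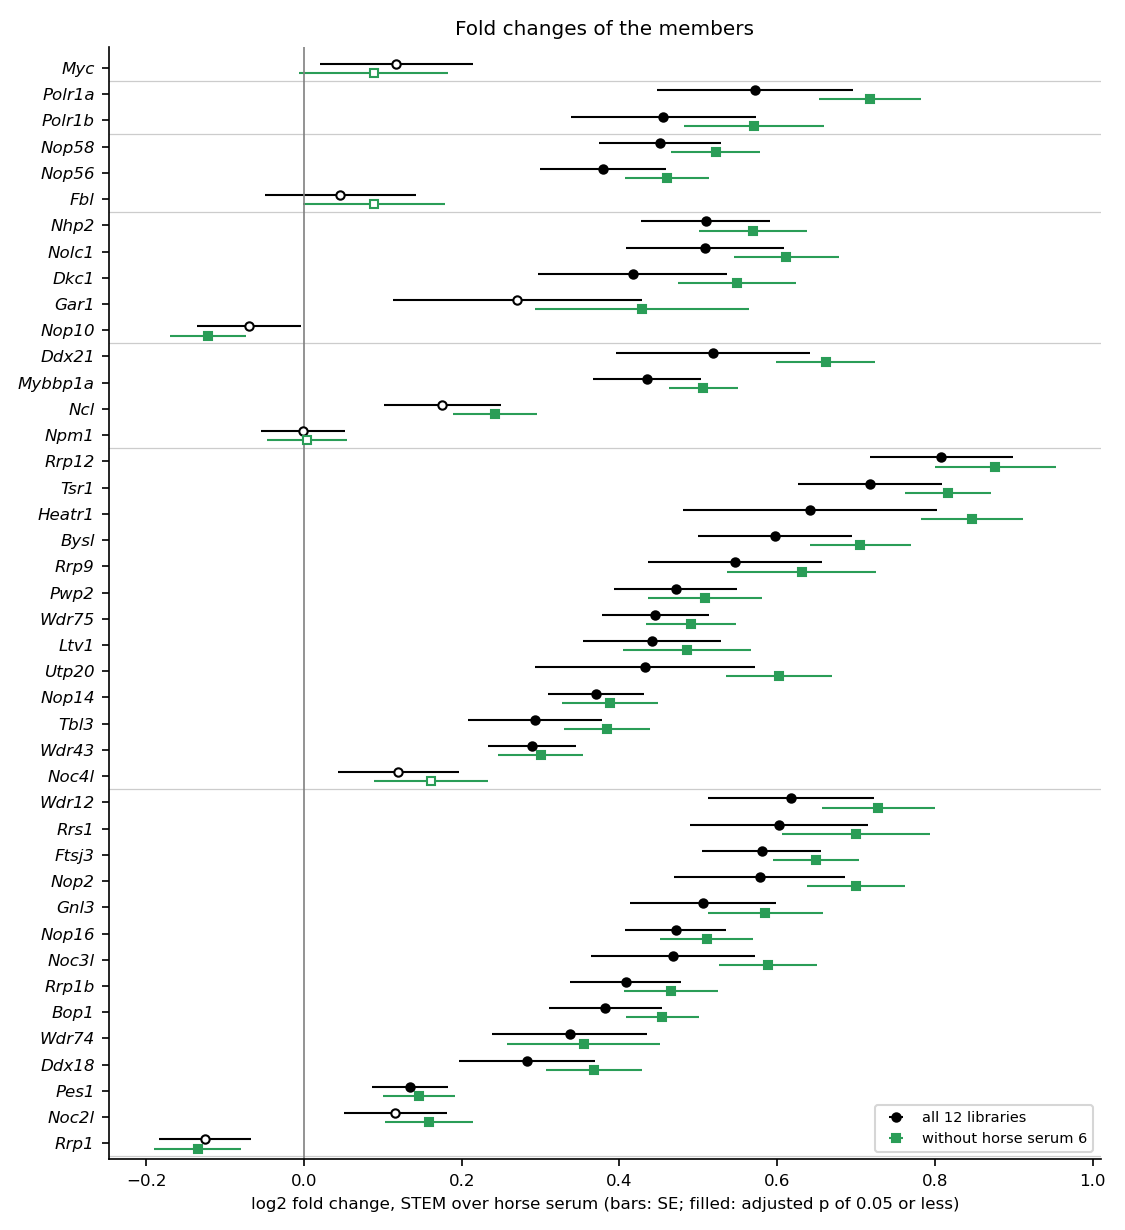
Log2 fold change of each member with its SE, from all 12 libraries (black) and without horse serum library 6 (green), with filled symbols at an adjusted p of 0.05 or less. Leaving out library 6 moved most members to the right, and Myc, Fbl, Npm1 and Noc4l were not called in either.

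The box C/D snoRNPs, which guide ribose methylation, were represented by 3 core proteins, of which 2 were higher, against 18.9% of all tested genes. Nop58, a scaffold protein, was at 53.8, 57.2 and 73.2 CPM in horse serum. It was at 73.4, 81.1 and 93.6 CPM with STEM, with a log2 fold change of 0.45 (SE 0.08, adjusted p = 0.000388). The groups did not overlap, although horse serum library 6 lay just under the lowest STEM library. Nop56, its paralog in the same particle, was at 51.4, 53.2 and 71.9 CPM and at 68.7, 72.6 and 84.3 CPM (log2 fold change 0.38, SE 0.08, adjusted p = 0.00182), with the overlap again due to library 6. Fbl, the methyltransferase of the particle, was at 17.6, 19.3 and 22.2 CPM in horse serum and at 16.5, 19.4 and 25.8 CPM with STEM. Its log2 fold change was 0.05 (SE 0.10, interval -0.16 to 0.25, adjusted p = 0.733) and the STEM libraries spread on both sides of the horse serum range.

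The box H/ACA snoRNPs guide the change of uridine to pseudouridine. In this group 3 of 5 proteins were higher, against 18.9% of all tested genes. Nhp2, a core protein, was at 21.8, 23.4 and 29.3 CPM in horse serum. It was at 30.3, 35.0 and 39.6 CPM with STEM, with a log2 fold change of 0.51 (SE 0.08, adjusted p = 0.000236), with no overlap. Nolc1, a nucleolar chaperone of snoRNPs, was at 29.3, 32.2 and 45.4 CPM and at 44.2, 47.3 and 55.8 CPM (log2 fold change 0.51, SE 0.10, adjusted p = 0.00117). Only horse serum library 6 reached into its STEM range. Dkc1, the pseudouridine synthase, had a log2 fold change of 0.42 (adjusted p = 0.014), and Gar1, a core protein at 2.30 to 4.41 CPM, one of 0.27 (adjusted p = 0.198), which was called only without library 6 (0.43, adjusted p = 0.0128). Nop10, the smallest core protein, was at 40.7, 52.2 and 53.3 CPM in horse serum and at 43.7, 47.7 and 49.8 CPM with STEM (log2 fold change -0.07, SE 0.07, adjusted p = 0.441). It was the 1 member for which library 6 was the lowest.

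Factors that build snoRNPs or act beside them were a further list of 10 genes, with a median log2 fold change of 0.16. In this list 5 were higher (50%) and 2 lower (20%), against 18.9% and 17.4% of all tested genes. Ruvbl1, Ruvbl2, Znhit6 and Nufip1 were the other genes called higher, and their calls were lost in 17, 10, 1 and 1 of 19 alternatives. The lower genes were Rpap3, a cochaperone, which fell by 0.35 (adjusted p = 0.000141), and Znhit3, which fell by 0.36 (adjusted p = 0.00175), neither with overlap. Tcof1, a nucleolar protein that works with RNA polymerase I, rose by 0.52 (adjusted p = 0.00802).

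Of 4 abundant nucleolar proteins with several roles 2 were higher, against 18.9% of all tested genes. Mybbp1a (chr11:72441355-72451768), which binds Myb and takes part in rRNA transcription and processing, was at 68.7, 72.9 and 93.5 CPM in horse serum. It was at 94.4, 103 and 107 CPM with STEM, with a log2 fold change of 0.44 (SE 0.07, adjusted p = 0.000203). The groups did not overlap, with less than 1 CPM between horse serum library 6 and the lowest STEM library. Ddx21, an RNA helicase, was at 64.2, 75.9 and 118 CPM and at 103, 112 and 134 CPM (log2 fold change 0.52, SE 0.12, adjusted p = 0.00513). Without library 6, in which it was highest, the horse serum libraries reached no more than 78.1 CPM. Ncl, nucleolin, was closest to the threshold among the members that were not called, with a log2 fold change of 0.18 (adjusted p = 0.0751), and passed without library 6 (0.24, adjusted p = 0.000885). Npm1, nucleophosmin, was at 364, 393 and 401 CPM in horse serum and at 355, 382 and 439 CPM with STEM. Its log2 fold change was -0.00 (SE 0.05, interval -0.11 to 0.11, adjusted p = 0.993), so the interval holds changes of up to 1.08-fold either way. Per kb of merged exons Npm1 had the highest value of the members, at 145 CPM in each group. It was ahead of Nop10 (44.9 with horse serum), Rrp1 (33.9), Bop1 (32.8) and Pes1 (30.6). The lowest values were those of Wdr12 (1.72), Gar1 (1.74) and Polr1b (2.27). Merged exons can be longer than any 1 transcript, so these values do not rank abundance. Wdr12, with 11955 bases of merged exons, was at a mean of 20.6 CPM in horse serum and Gar1 at 2.99.

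Small subunit assembly had 12 of 13 members higher and 8 of them without overlap, and a median log2 fold change of 0.45. Among all tested genes 18.9% were higher, and 8.68% were higher without overlap. Rrp12 (chr19:41862851-41896173), which helps the small subunit precursor out of the nucleus, was at 25.8, 26.9 and 34.4 CPM in horse serum. With STEM it was at 42.7, 49.3 and 59.8 CPM, a log2 fold change of 0.81 (SE 0.09, adjusted p = 1.13e-05), and no member rose more. The lowest STEM library lay well above horse serum library 6. Tsr1 (chr11:74898071-74909342), a late assembly factor whose promoter is shown above, was at 49.5, 52.7 and 73.6 CPM in horse serum. It was at 80.1, 90.8 and 103 CPM with STEM, with a log2 fold change of 0.72 (SE 0.09, adjusted p = 3.87e-05), with no overlap. The gene Srr on the opposite strand shares 32.3% of its exon length and had a log2 fold change of 0.02 (adjusted p = 0.891). Noc4l was the member of this group that did not pass, at 15.4, 16.7 and 19.2 CPM in horse serum and 16.1, 18.6 and 20.2 CPM with STEM (log2 fold change 0.12, SE 0.08, adjusted p = 0.237), whereas Nop14, its binding partner, rose by 0.37.

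The other members of the early small subunit precursor were Heatr1, Wdr43 and Wdr75, which bind the transcript first, with log2 fold changes of 0.64, 0.29 and 0.45. Pwp2 and Tbl3, of a second complex on the same precursor, had 0.47 and 0.29, Utp20 0.43, and Rrp9, a protein of the snoRNP that guides the first cuts, 0.55. The late factors Bysl and Ltv1 had 0.60 and 0.44. All 9 were called, with adjusted p between 0.000157 and 0.0267. The call of Utp20 was lost in 8 of 19 alternatives, where its log2 fold change was between 0.38 and 0.43. Heatr1 was the member that horse serum library 6 moved most, at 70.8 CPM there against no more than 39.9 CPM in the other 5 libraries, and its log2 fold change was 0.85 without it. Tbl3 shares 37.3% of its exon length with Noxo1 on the opposite strand, which was at 3.02 CPM with horse serum and 2.12 with STEM.

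Large subunit assembly had 12 of 14 members higher, 5 of them without overlap, and a median log2 fold change of 0.44. The shares of all tested genes were 18.9% higher and 8.68% higher without overlap. Ftsj3 (chr11:106249142-106256079), an rRNA methyltransferase, was at 58.7, 65.8 and 82.9 CPM in horse serum. It was at 92.4, 98.5 and 113 CPM with STEM, with a log2 fold change of 0.58 (SE 0.08, adjusted p = 4.03e-05). Nop16 (chr13:54584185-54590090), a factor of early large subunit precursors, was at 22.6, 23.5 and 27.2 CPM and at 30.3, 33.8 and 36.4 CPM (log2 fold change 0.47, SE 0.06, adjusted p = 5.68e-05). Neither gene overlapped between the groups. Noc2l was at 45.7, 47.9 and 56.0 CPM in horse serum and at 47.9, 52.2 and 61.1 CPM with STEM (log2 fold change 0.12, SE 0.06, adjusted p = 0.178), and was called only without library 6 (0.16, adjusted p = 0.0228). Samd11 shares 20.9% of its exon length on the opposite strand and was at 0.0218 CPM with horse serum and 0.021 with STEM.

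The 3 proteins of the complex of Pes1, Bop1 and Wdr12, which is needed to mature the large subunit rRNA, were all called higher. Wdr12 had a log2 fold change of 0.62 (adjusted p = 0.000384) and Bop1 one of 0.38 (adjusted p = 0.0008). Pes1, at 0.13 (adjusted p = 0.0388), was the called member closest to the threshold. Its call was lost on leaving out horse serum library 1, 2, 4 or 5, or any 1 of STEM libraries 7 to 11. It was also lost with DESeq2, with DESeq2 size factors in edgeR, with upper quartile normalization and with each other count filter. The paralogs Rrp1 and Rrp1b had fold changes of opposite sign, a difference that was not tested. Rrp1b rose by 0.41 with no overlap, whereas Rrp1 was at 107, 110.2 and 126 CPM in horse serum and at 89.8, 105 and 112 CPM with STEM (log2 fold change -0.13, SE 0.06, adjusted p = 0.105). Of the others, Nop2, an rRNA methyltransferase, rose by 0.58, Rrs1, which brings in the smallest rRNA, by 0.60, the GTPase Gnl3 (nucleostemin) by 0.51, Noc3l by 0.47, Wdr74 by 0.34 and the helicase Ddx18 by 0.28.

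Other assembly factors that are not members were examined as further lists, all chosen with earlier results of these data known. Of all tested genes 18.9% were higher and 17.4% lower. Of 41 small subunit factors 21 were higher (51.2%) and 1 lower (2.44%), with a median log2 fold change of 0.20. Without horse serum library 6, 26 were higher and 2 lower, where 26.3% and 24.5% of all genes were. The genes called higher with all libraries include Utp4 (0.41), Rrp36 (0.37) and Dcaf13 (0.28). The lower gene was Utp3, which fell by 0.30 (adjusted p = 0.0426), a call lost in 11 of 19 alternatives. Of 46 large subunit factors 30 were higher (65.2%) and 3 lower (6.52%), with a median of 0.27. Nifk rose by 0.54 (adjusted p = 6.7e-06), Ppan by 0.67 and Rpf2 by 0.45. Zfp622, a factor that acts in the cytoplasm, fell by 0.30 (adjusted p = 0.000384) without overlap, and the falls of Nop53 and Nsa2, by 0.16 and 0.19, were lost in 8 and 9 alternatives. Of 17 tested genes of the exosome and other rRNA nucleases 10 were higher (58.8%), with a median of 0.34 over the list. In edgeR's test 0 were lower (0 at an unadjusted p under 0.05, and 0 in DESeq2 and limma-voom). Among the higher genes were Exosc9 (0.41), Nol12 (0.41) and Dis3 (0.52).

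**Figure D5:**
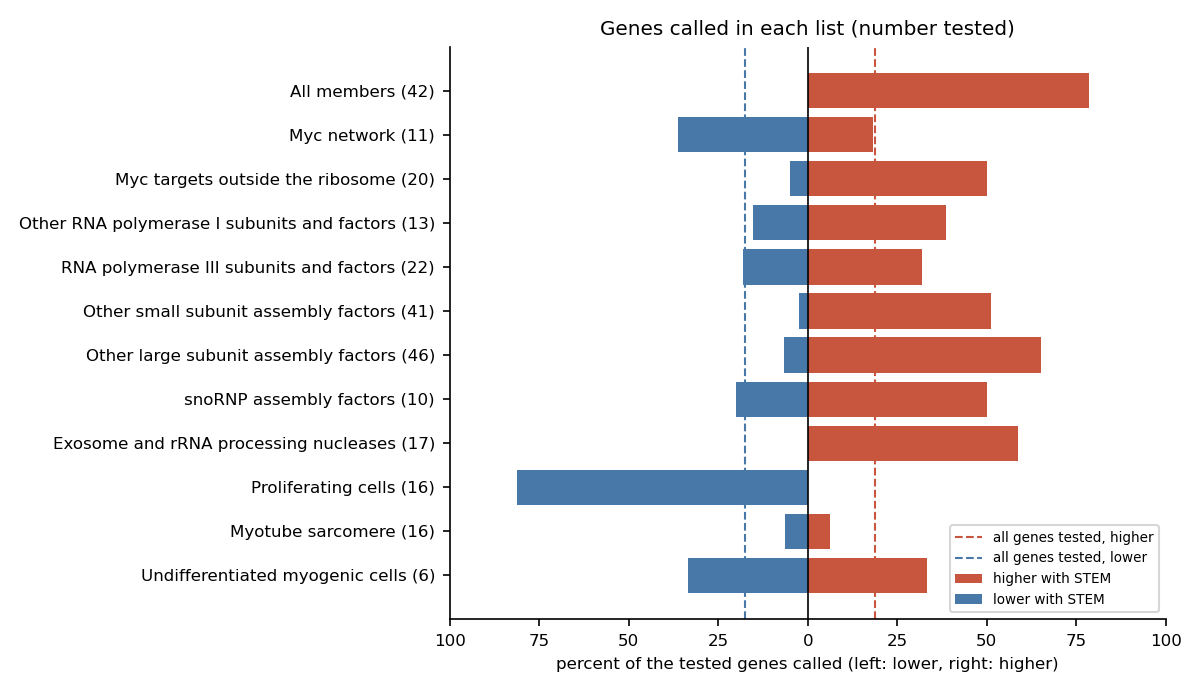
Bars give the percent of tested genes in each list that were called higher (right, red) or lower (left, blue) with STEM, with the number tested beside the name. Dashed lines mark the shares of all tested genes, 18.9% higher and 17.4% lower, and the members stand at 78.6% higher.

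Within the groups, STEM library 10 held the highest of the 6 STEM values for 30 of 42 members and for 22.3% of all tested genes. STEM library 8 held the lowest for 22 members and 14% of tested genes. Among horse serum libraries 1 to 5, library 4 was the highest for 24 members and 20.2% of tested genes. These libraries had 15384363, 16935641 and 15991352 counts, inside the range of all 12. The members' summed CPM was between 1973 and 2112 in horse serum libraries 1 to 5, 2492 in library 6 and between 2463 and 2943 with STEM.

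Some member counts can include reads of other genes. At 95% identity over at least 200 bases, 7 members (Ddx18, Ddx21, Fbl, Nop56, Npm1, Pes1 and Wdr12) had processed pseudogenes, whose own counts came to at most 2.14% of those of the member. On the same strand, exons of Nop56, Nop58, Ncl and Gnl3 overlap genes of small RNAs, by 133 bases at the most (Snora75 in Ncl). What those overlaps do to the counts was not examined. Exons of 18 members overlap a gene on the opposite strand, over more than 20% of exon length in Tbl3, Tsr1 and Noc2l. Whether reads were counted by strand is not given in the sources used here.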

How the data were processed

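RNA was sequenced from 12 libraries of C2C12 myotubes, 6 with STEM and 6 with horse serum, grouped by their labels. The authors deposited whole-number counts of reads per Ensembl gene, not normalized. The submitters' processing notes name STAR 2.7.3a, featureCounts 1.6.3, DESeq2 1.26.0 and build GRCm38, and the strand setting of the counting is not given in the sources used here. Of the 55487 genes 99.53% were in GENCODE M21, which gave symbols, coordinates and exon lengths.

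Counts were tested in R 4.3.3 with edgeR 4.0.16 (TMM, filterByExpr, robust glmQLFit, glmQLFTest), with Benjamini-Hochberg adjustment over 14175 genes and calls at an adjusted p of 0.05 or less. Only the 12 libraries of the comparison entered the fit, without covariates. CPM used TMM-normalized library totals, and log2 CPM a prior count of 2. The exact permutation test was two-sided. The fits were tested on simulated data. Alternatives were DESeq2 1.42.0, limma-voom (limma 3.58.1), other normalizations and count filters, and leaving out each library in turn.

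The members and the further lists were chosen with earlier results of these data known. All members were named. Full values were given for Myc, Polr1a, Polr1b and, in each other role group, the 2 members with the lowest p and the 1 with the highest. Up to 3 genes with the lowest p were named from each further list, and other genes of these lists were named after their values were seen. Of the genes that meet this rule, 1 is not reported here. The promoters printed were the 4 members with the most E-boxes, ties going to the lowest p. A list of 4 transcripts of the pre-ribosomal RNA repeat had no row and was not analysed here. Totals ran from 13285472 to 24536264 counts per library, and intervals are those of the fit.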

Additional observations from a re-analysis of the deposited data

Results flagged for a closer look

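In each group of 6 libraries the highest or lowest CPM of each member was compared with its nearest neighbour by Dixon's criterion at the 95% level, which chance meets in about 1 group in 20. Of 84 groups 20 met it. Horse serum library 6 accounted for 16, always as the highest of its group. The values were 58.1 CPM for Polr1a, 71.9 for Nop56, 73.2 for Nop58, 45.4 for Nolc1, 118 for Ddx21, 93.5 for Mybbp1a, 70.8 for Heatr1, 30.6 for Pwp2, 51.0 for Tbl3, 63.3 for Utp20, 34.4 for Rrp12, 73.6 for Tsr1, 120.5 for Bop1, 33.1 for Noc3l, 31.8 for Ddx18 and 85.5 for Gnl3. The other 4 were STEM libraries that stood above the rest of their group, library 10 for Nop56 at 84.3 CPM and for Ltv1 at 46.1 CPM, library 12 for Ncl at 97.8 CPM and library 9 for Rrp1b at 27.0 CPM.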

How the results depend on the processing

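The number of members higher with STEM was between 31 and 33 under every alternative other than leaving out horse serum library 6, where it was 36, and leaving out 1 library at a time gave 31 to 36. The same 31 members were called in all 19 alternatives, since only Pes1 (14 alternatives) and Utp20 (8 alternatives) lost their call. For Utp20 the libraries concerned were horse serum 1 to 5 and STEM 10 and 12, with log2 fold changes of 0.38 to 0.42. The number of members lower with STEM was 0 in all alternatives but that without horse serum library 6, so it ranged from 0 to 2 over the libraries left out. The median log2 fold change of the members was between 0.40 and 0.51, and other scalings moved the median of all genes by between -0.0202 and 0.0191. Myc had log2 fold changes between 0.06 and 0.16 and was called in 0 alternatives, with adjusted p from 0.223 to 0.675. The fold changes of Npm1 and Fbl, neither of them called, changed sign. Npm1 had 0.0191 with total counts only and -0.0395 to 0.0234 on leaving out 1 library, and Fbl had -0.0354 (without STEM library 10) to 0.0966 on leaving out 1 library. The number of members with an E-box was 1 in the 250 bases before the start only, against 7 in the whole window and 6 in the first 50 transcribed bases, a window chosen after seeing the data. No paired analysis was possible because the groups share no replicate numbers. Depth gave the sparsest member, Gar1, 32 counts in 1 library.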
